A study of Rattus norvegicus with 9 samples.

Results

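Ion channel genes were followed in cultured rat ureteric buds, the epithelial outgrowths that form the collecting duct tree of the kidney. Members were all probe sets whose annotated symbol began as a potassium (Kcn), voltage-gated calcium (Cacna, Cacnb, Cacng), CLC chloride (Clcn), intracellular chloride (Clic), TRP (Trpc, Trpm, Trpv), voltage-gated sodium (Scn) or ATP-gated P2X (P2rx) channel gene, with a number in the name. The rule found 202 probe sets of 143 genes among 15866 on the array, out of 10411 genes named there, and it used no measured value. It also took in Trpc4ap, which encodes a protein that binds TRP channels and is not itself a channel, and 1 probe set annotated to several TRP genes was left out.

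Sprague-Dawley rat embryos of embryonic day 13 supplied the buds, which were dissected away from their mesenchyme and cultured for 4 days within mixed Matrigel and type 1 collagen. Every culture, whatever its group, received FGF1 at 250 ng/ml and GDNF at 125 ng/ml. HRG cultures also received recombinant human heregulin alpha at 500 ng/ml, which activates ErbB receptors. PTN cultures received pleiotrophin, at about 3 µg/ml, a growth factor that had been purified from the BSN medium. BSN cultures received the medium itself, which a metanephric mesenchymal cell line had conditioned. Each sample pooled 3 buds, and each medium had 3 samples, so 9 arrays were measured. The series title counts PTN with BSN as branching, whereas the description of the PTN samples says non-branching, so groups are named here by medium. No culture had FGF1 and GDNF alone, so a level above that of another medium cannot be told apart from a loss in that other medium.

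Channels set the membrane potential and the salt, water and calcium transport of epithelial cells. In the mature collecting duct, inwardly rectifying potassium channels return potassium across the membrane or secrete it, TRPV channels admit calcium or sense cell stretch and osmolarity, and CLC proteins carry chloride at the cell surface or in endosomes. Many voltage-gated sodium, calcium and potassium channels are best known from nerve and muscle, where auxiliary subunits set their gating and place in the membrane.

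Values are deposited GCOS signals on a linear scale, printed as the 3 arrays of a medium or as mean ± SD (n = 3 arrays). The 40th percentile of an array's signals lay between 580 and 788, and the mean over arrays was 691 in HRG, 632 in PTN and 750 in BSN. Probe sets bind their targets unequally, so a signal is compared between media and not between genes. Pearson's r of log2 signals across probe sets was 0.959 to 0.978 for arrays of 1 medium and 0.941 to 0.963 for arrays of different media. The 3′ to 5′ signal ratio of the actin control, a sign of RNA length, was 18.6 to 29.6 in HRG, 15.3 to 18.1 in PTN and 28 to 37.8 in BSN. That of the GAPDH control was 2.01 to 3.49 in HRG, 2.97 to 6.85 in PTN and 3.75 to 5.83 in BSN, another order of media, and the part of either in any channel difference was not tested. Of 11 ureteric bud epithelium markers on the array 10 passed the threshold, and of 3 metanephric mesenchyme markers (Wt1, Gdnf, Itga8) and 4 blood markers none did. Of the stroma and fibroblast markers 3 of 7 passed (Col1a1, Col1a2, Col3a1), of the muscle markers 3 of 7 and of the endothelium markers 1 of 2 (Kdr). In these bulk samples, fewer cells of a type and less RNA per cell cannot be told apart.

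Fewer channel probe sets than probe sets in general exceeded the signal threshold, the 40th percentile of an array. Some 60 of 202 channel probe sets, of 50 genes, exceeded it on at least 3 arrays, or 29.7%, against 65.8% of all probe sets with 1 gene symbol. Of the 202, 30 were above on all 9 arrays and 130 on none. The share was highest for chloride channels, 8 of 15 probe sets, with 5 of 9 for CLC and 3 of 6 for intracellular chloride channels. Among potassium channels it was 12 of 26 for inward rectifiers, 5 of 15 for tandem-pore channels, 10 of 41 for voltage-gated channels, 3 of 19 for auxiliary subunits and 0 of 7 for calcium-activated channels. It was 8 of 20 for TRP channels, 5 of 18 for calcium channel pores, 4 of 17 for calcium channel auxiliary subunits, 2 of 12 for voltage-gated sodium channel pores and auxiliary subunits, and 2 of 11 for P2X receptors. These shares describe the signals and carry no test, and a signal below the threshold does not show that a gene is silent. The probe sets above on exactly 3 arrays (9) had mean signals of 598 to 667, and those above on exactly 2 arrays (Cacng6, Clcn4, Kcnk9 and P2rx6) had 561 to 647.

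**Figure D1:**
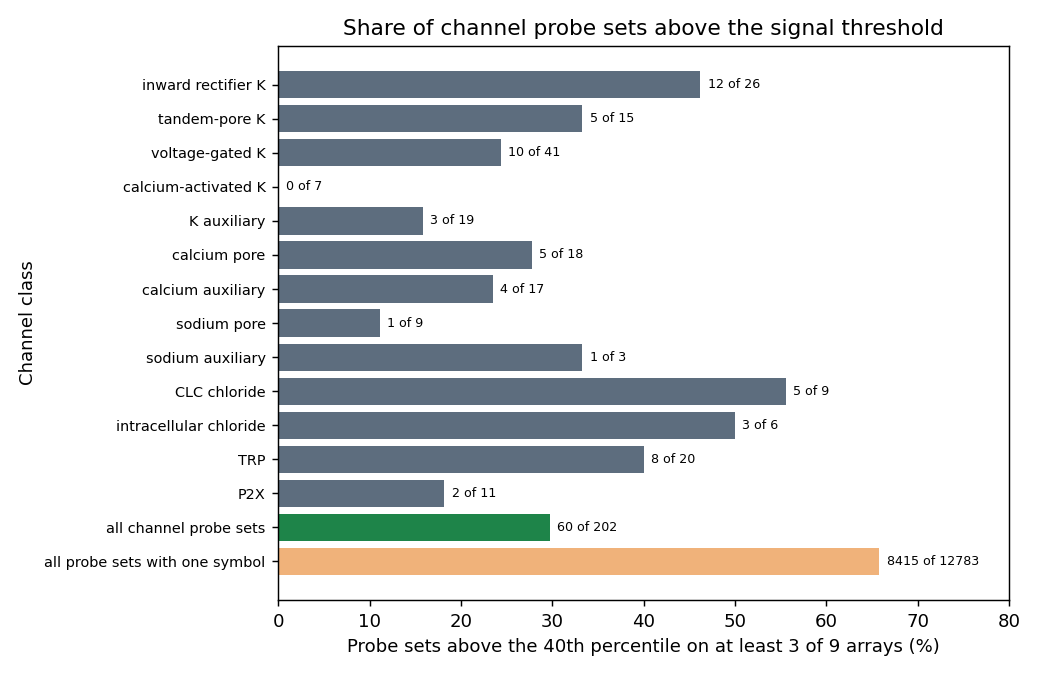
Percentage of probe sets that exceeded the 40th percentile of signals on 3 or more of the 9 arrays (horizontal axis) for each channel class, for all channel probe sets and for all probe sets with 1 gene symbol, with the counts beside the bars. CLC chloride channels reached 55.6%, the set of all channels 29.7% and all probe sets with 1 symbol 65.8%.

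Between media, 19 of the 60 tested channel probe sets, of 18 genes, passed limma's moderated test at an adjusted p under 0.05 in at least 1 comparison, or 31.7%, against 38.7% of all 10106 tested probe sets, and 41 passed in none. HRG against BSN gave 9 calls of 60, or 15%, where 15.8% of all tested probe sets were called. Of the 9 channel calls, 4 were higher in HRG (6.92% of all tested) and 5 lower (8.86%). HRG against PTN gave 14 calls, or 23.3%, against 25.8% of all, with 9 higher in HRG (14.1% of all) and 5 lower (11.7%). PTN against BSN gave 10 calls, or 16.7%, against 22.5% of all, with 4 higher in PTN (9.15% of all) and 6 lower (13.4%). The shares of calls lay near those of all probe sets, so the counts are no result about channels as a group. The 3 comparisons share their arrays, and Cacna1d, 1 Kcnj16 probe set and Clcn1 passed the signal threshold through the PTN, HRG and BSN arrays alone. Kcns3, Cacna1b and Kcnk6 probe set 1387264_at passed it with no HRG array above it. Kcnq1 passed it with no BSN array above it, and Kcnq3 probe set 1369005_at with no PTN array.

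The median log2 difference of the 60 was -0.13 for HRG minus BSN, 0.16 for HRG minus PTN and -0.26 for PTN minus BSN, beside -0.04, 0.08 and -0.11 for all tested probe sets. Centring each array on its median moved the median of all probe sets from the last value to 0.10 for PTN minus BSN, and the channel calls were then 6 higher and 4 lower in PTN. The channel median for PTN minus BSN was then -0.04. After quantile normalization it was -0.02, beside -0.01 for all probe sets, so its size depended on the scaling. Median centring moved the median of all probe sets for HRG minus PTN to -0.03, with 7 channel calls higher and 5 lower in HRG. Quantile normalization and median centring each gave 5 higher and 4 lower in HRG against BSN. Single arrays moved the counts: HRG against PTN gave 8 calls without HRG replicate 1, PTN replicate 2 or PTN replicate 3, and 9 without HRG replicate 2 or HRG replicate 3. PTN against BSN gave 6 without BSN replicate 2 or BSN replicate 3. Of 33 calls over the 3 comparisons, 18 were kept with each array left out and in every other fit that tested them. Among the 18 were Cacna1d and Kcnk6 for HRG against PTN and both calls of Kcnj16 probe set 1370076_at. The signal threshold itself favoured those differences, so their being kept is not support.

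**Figure D2:**
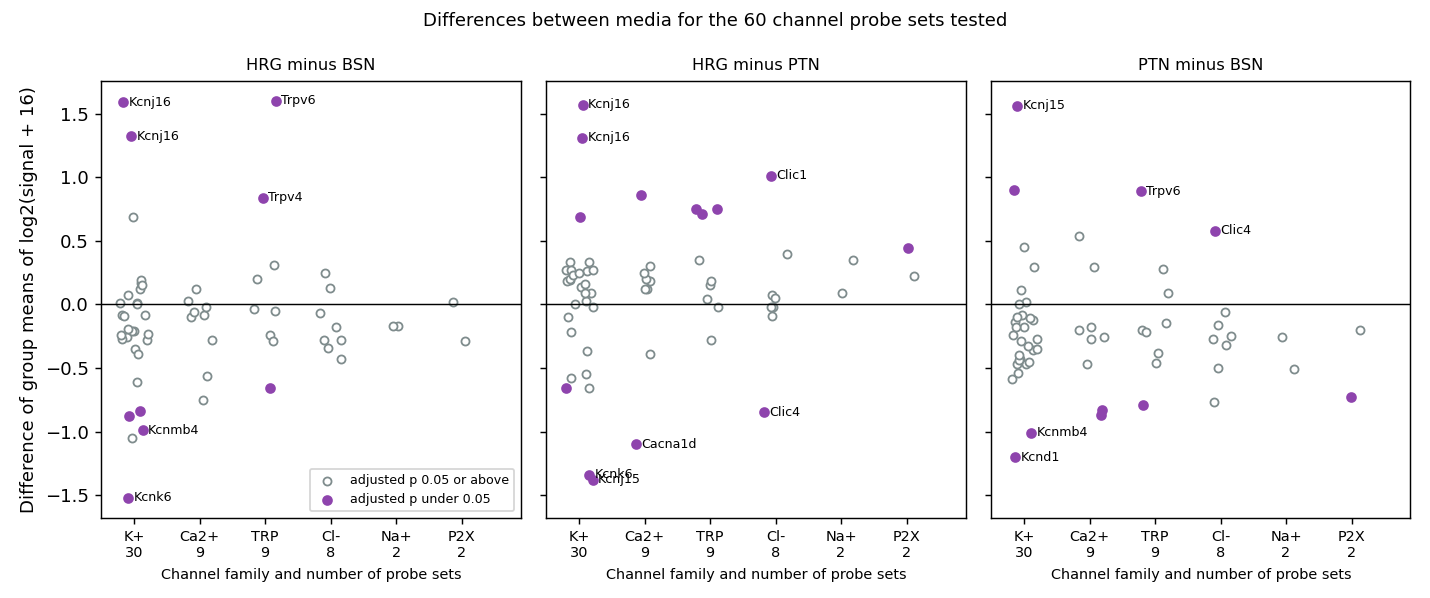
Difference of the group means of log2(signal + 16) for each of the 60 tested channel probe sets (points), by channel family along the horizontal axis, in HRG minus BSN, HRG minus PTN and PTN minus BSN. Filled points had an adjusted p under 0.05, 9, 14 and 10 of them from left to right, and some of those are named.

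The inward rectifier Kcnj15 was the channel gene with the smallest adjusted p, and it was high in PTN. Its probe set 1374251_at had signals of 3419, 3410 and 3072 in HRG, 11684, 7394 and 7416 in PTN, and 2976, 2557 and 3277 in BSN. All PTN arrays lay above all others, PTN replicate 1 farthest, while the HRG and BSN arrays overlapped. The means were 3300 ± 197 in HRG, 8831 ± 2471 in PTN and 2937 ± 362 in BSN. The signal was 2.61-fold lower in HRG than in PTN (log2 difference -1.38, SE 0.18, adjusted p = 0.000123) and 2.94-fold higher in PTN than in BSN (log2 difference 1.56, SE 0.18, adjusted p = 0.000142). HRG and BSN differed by 0.17 on the log2 scale (adjusted p = 0.587). The other Kcnj15 probe set, 1369508_at, gave 1160 ± 198 in HRG, 934 ± 249 in PTN and 1236 ± 169 in BSN and passed in no comparison. The gene's 2 probe sets therefore disagree, and which transcript each reads was not tested.

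Kcnj16 showed another pattern, with its high level in HRG. It encodes a subunit that conducts little on its own and joins other inward rectifiers, among them Kcnj10 and Kcnj15, on the blood side of kidney tubule cells. Probe set 1373991_at had 2096, 1508 and 1791 in HRG, 498, 810 and 877 in PTN, and 694, 970 and 522 in BSN. Every HRG array lay above every other array, and PTN and BSN overlapped. The signal was 2.49-fold higher in HRG than in PTN (log2 difference 1.31, SE 0.261, adjusted p = 0.00264), and HRG minus BSN was 1.32 on the log2 scale (adjusted p = 0.00401), given without a fold because the BSN mean lay below the threshold. Its second probe set, 1370076_at, had 1296, 807 and 1126 in HRG, 253, 447 and 366 in PTN, and 322, 529 and 232 in BSN. It was also higher in HRG than in PTN (adjusted p = 0.00492) and than in BSN (adjusted p = 0.00677), but it passed the signal threshold through its HRG arrays alone, so a difference was built into its selection and is not given as support. The PTN minus BSN difference was 0.00 and 0.02 on the log2 scale for the pair. Kcnj10, named after its values were seen, did not pass the threshold, with 463 ± 58.2 in HRG, 335 ± 31.9 in PTN and 532 ± 144 in BSN.

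The promoters of 4 called genes are shown because Kcnj16, Trpv6 and Trpv4 were higher in HRG and Kcnj15 was higher in PTN. Each is a RefSeq window on GRCr8 of 300 bases, 250 before and 50 from the annotated start, and 106 of the 143 channel genes had a window. Capitals mark matches on either strand to any of 5 motifs, TATAAA for the TATA box, GGGCGG for the GC box, TGANTCA for AP-1, AGATAA for the factors of the GATA family and CACGTG for the E-box; no 2 motifs overlapped in these windows.
Kcnj16 (chr10:96517074-96517373, plus strand): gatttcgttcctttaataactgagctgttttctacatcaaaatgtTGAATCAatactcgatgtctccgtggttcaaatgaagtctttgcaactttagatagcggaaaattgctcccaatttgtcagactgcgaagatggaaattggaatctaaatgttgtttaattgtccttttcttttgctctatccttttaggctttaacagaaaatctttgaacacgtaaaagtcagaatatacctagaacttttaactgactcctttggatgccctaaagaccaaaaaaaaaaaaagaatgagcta
Trpv6 (chr4:71489618-71489917, minus strand): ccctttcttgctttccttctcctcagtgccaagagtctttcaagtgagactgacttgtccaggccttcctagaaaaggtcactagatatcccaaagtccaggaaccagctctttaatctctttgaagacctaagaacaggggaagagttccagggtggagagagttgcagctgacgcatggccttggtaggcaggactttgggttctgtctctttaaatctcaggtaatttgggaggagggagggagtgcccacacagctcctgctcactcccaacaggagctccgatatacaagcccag
Trpv4 (chr12:47598938-47599237, plus strand): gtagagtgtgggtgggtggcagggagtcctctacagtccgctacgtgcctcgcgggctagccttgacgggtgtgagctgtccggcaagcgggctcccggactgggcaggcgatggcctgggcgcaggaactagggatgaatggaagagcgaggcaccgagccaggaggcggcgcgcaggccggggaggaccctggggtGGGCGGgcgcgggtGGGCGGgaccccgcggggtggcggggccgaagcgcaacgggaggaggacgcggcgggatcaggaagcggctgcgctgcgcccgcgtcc
Kcnj15 (chr11:48070700-48070999, plus strand): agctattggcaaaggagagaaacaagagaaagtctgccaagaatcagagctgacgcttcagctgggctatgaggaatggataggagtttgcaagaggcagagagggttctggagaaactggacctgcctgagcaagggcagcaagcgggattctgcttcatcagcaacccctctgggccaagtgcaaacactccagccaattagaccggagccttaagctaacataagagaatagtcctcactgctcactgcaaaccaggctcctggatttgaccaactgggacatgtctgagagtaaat

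The windows differ in base composition. Trpv4 had 73.7% G and C and 34 CpG pairs, Trpv6 50.7% and 2, Kcnj16 34% and 6, and Kcnj15 50.3% and 3. The only matches were an AP-1 motif in Kcnj16, its first base 205 bases before the start, and a pair of GC boxes in Trpv4, at 52 and 38 bases before the start. No motif was shared by the 3 genes that were higher in HRG. Of all 27457 windows 7.33% held the AP-1 motif and 34.9% the GC box, against 3.77% and 49.1% of the 106 channel windows. The TATA box stood in 14.3% of all windows and 6.6% of channel windows, the GATA motif in 11.3% of both, and the E-box in 6.65% and 5.66%. Channel genes with a probe set above the signal threshold had a median of 20.5 CpG pairs (38 windows), those with none above it 13 (68 windows), and all windows 7. These are counts of letters in windows fixed by the annotated start, which need not be the start used in the bud.

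Among the other inward rectifiers above the threshold, Kcnj3, Kcnj4, Kcnj5, Kcnj6, Kcnj11 and Kcnj14 passed in no comparison. Kcnj11, the pore of the ATP-sensitive potassium channel, had 3 probe sets above the threshold. Their means ran from 646 to 1024 in HRG, from 695 to 960 in PTN and from 758 to 1241 in BSN.

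Tandem-pore potassium channels carry the background leak that holds the resting potential. Kcnk6 split by probe set. Probe set 1387264_at had 256, 427 and 158 in HRG, 590, 664 and 815 in PTN, and 854, 950 and 572 in BSN, with no HRG array reaching any other. No HRG array exceeded the signal threshold, so this probe set passed it through PTN and BSN arrays alone. That selection favoured a low HRG level, so the differences are a description. The probe set was lower in HRG than in PTN (log2 difference -1.34, SE 0.346, adjusted p = 0.0122) and than in BSN (-1.52, adjusted p = 0.0092), the last lost without BSN replicate 2 (adjusted p = 0.0519). Probe set 1370776_a_at gave 1569 ± 188 in HRG, 1304 ± 198 in PTN and 1441 ± 208 in BSN, with no call. Kcnk1, a close relative of Kcnk6, had 1563, 1796 and 1514 in HRG, 1460, 1804 and 1609 in PTN, and 1969, 1891 and 2071 in BSN. Its BSN arrays lay above all others, but neither difference from BSN passed (adjusted p = 0.207 for HRG and 0.159 for PTN).

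Voltage-gated potassium channels open on depolarisation, and 4 of their 10 tested probe sets were called in at least 1 comparison, where 38.7% of all tested probe sets were. The 4 had different patterns of calls. Kcnd1, which carries a fast inactivating current, had 1361, 845 and 845 in HRG, 1225, 570 and 696 in PTN, and 1856, 1514 and 2190 in BSN. All BSN arrays lay above the rest. Kcnd1 was 2.30-fold lower in PTN than in BSN (log2 difference -1.20, SE 0.275, adjusted p = 0.00841) and 1.84-fold lower in HRG than in BSN (adjusted p = 0.0479). Leaving out any BSN array, or HRG replicate 2 or 3, ended the HRG call, with adjusted p of 0.0636 to 0.17.

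Kcns3, a subunit that forms no channel alone and alters the gating of others, had 440, 418 and 458 in HRG, 732, 664 and 705 in PTN, and 883, 678 and 841 in BSN. All HRG arrays lay below the other media. They also lay below the signal threshold, so Kcns3 passed it through PTN and BSN arrays alone. That selection favoured a low HRG level, so the differences are a description. Kcns3 was lower in HRG than in BSN (log2 difference -0.84, adjusted p = 0.0159) and than in PTN (-0.66, adjusted p = 0.0361). Leaving out BSN replicate 1 or 3, or HRG replicate 2, ended the first call (0.0546 to 0.0716), and the call against PTN was lost without any 1 of the 6 arrays (0.0532 to 0.0906).

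Kcnq1, a potassium channel of many epithelia that works with Kcne subunits, had 871, 727 and 1413 in HRG, 1468, 995 and 972 in PTN, and 548, 522 and 730 in BSN. No BSN array exceeded the signal threshold, so Kcnq1 passed it through HRG and PTN arrays alone. That selection favoured a low BSN level, so the differences from BSN are a description. Kcnq1 was higher in PTN than in BSN (log2 difference 0.90, SE 0.262, adjusted p = 0.0265). Leaving out BSN replicate 1 or 2 or PTN replicate 1 ended that call (0.0595 to 0.0828). For HRG minus BSN the log2 difference was 0.69 (adjusted p = 0.102), with overlapping arrays. Its partner Kcne3 had 732 ± 103 in HRG, 1098 ± 270 in PTN and 892 ± 225 in BSN, and no comparison passed.

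Kcnq3, best known from the M-current of neurons, was higher in HRG than in PTN at probe set 1369005_at (806 ± 82.3 in HRG and 497 ± 87.8 in PTN, adjusted p = 0.0452). The BSN mean was 733 ± 156. No PTN array exceeded the signal threshold, so the selection favoured a low PTN level and the HRG against PTN difference is a description. The call was lost on leaving out any 1 HRG array, PTN replicate 2 or PTN replicate 3 (0.0597 to 0.14), and the other probe set, 1388052_a_at, passed in no comparison.

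Kcnmb4, an auxiliary subunit of the large-conductance calcium-activated potassium channel, was low in both HRG and PTN. It had 1279, 1475 and 986 in HRG, 1018, 1234 and 1401 in PTN, and 2623, 2326 and 2418 in BSN. The BSN arrays stood clear of the other 6. Kcnmb4 was 1.98-fold lower in HRG than in BSN (log2 difference -0.99, SE 0.175, adjusted p = 0.0019) and 2.02-fold lower in PTN than in BSN (-1.01, SE 0.175, adjusted p = 0.00172). HRG and PTN differed by 0.03 on the log2 scale (adjusted p = 0.933). The pore of that channel is encoded by Kcnma1, and none of its 3 probe sets passed the threshold. Named after the values were seen, the highest of the 3 in PTN had 273 ± 80.4 in HRG, 493 ± 16.9 in PTN and 268 ± 94.4 in BSN.

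Among voltage-gated calcium channels 3 of 9 tested probe sets were called in at least 1 comparison, with 38.7% of all tested probe sets as background. Cacna1d, an L-type pore, was lowest in HRG at probe set 1369086_a_at, with signals of 432, 412 and 424, against 1168, 886 and 765 in PTN and 665, 615 and 614 in BSN. The 3 media did not overlap. It was lower in HRG than in PTN (log2 difference -1.10, SE 0.221, adjusted p = 0.00282). The probe set passed the signal threshold through its PTN arrays alone, which the high PTN level fixed, so this difference is a description. In the same fit, the differences from BSN had adjusted p of 0.114 for HRG and 0.0974 for PTN. PTN against BSN passed after quantile normalization (0.0141) or median centring (0.016). Of the gene's 3 probe sets only this 1 passed the threshold. Below it, 1370637_at had 400 ± 109 in HRG, 499 ± 113 in PTN and 592 ± 77.4 in BSN, so its highest mean was in BSN.

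Cacna1b, an N-type pore of nerve endings, had 582 ± 107 in HRG, 559 ± 224 in PTN and 988 ± 147 in BSN. It passed the signal threshold through all BSN arrays and PTN replicate 2, with no HRG array above it. That selection favoured a high BSN level, so the differences from BSN are a description. Cacna1b was lower in PTN than in BSN (adjusted p = 0.0473). This call was lost on leaving out any 1 BSN array, PTN replicate 1 or PTN replicate 3 (0.0752 to 0.153). The auxiliary subunit Cacnb3 had 1385, 964 and 973 in HRG, 865, 520 and 470 in PTN, and 797, 1046 and 1462 in BSN. All HRG arrays lay above the PTN arrays, and PTN overlapped BSN. It was higher in HRG than in PTN (adjusted p = 0.037) and lower in PTN than in BSN (adjusted p = 0.0474). The HRG call was lost on leaving out any 1 HRG array, PTN replicate 2 or PTN replicate 3 (0.0569 to 0.149), and the BSN call when replicate 2 or 3 of BSN or of PTN was left out (0.0967 to 0.196). Cacnb2, another such subunit, had 1088 ± 83.1 in HRG, 888 ± 171 in PTN and 999 ± 110 in BSN. Cacna1a, a P/Q-type pore, had 694 ± 262, 880 ± 213 and 727 ± 228 in the same order, and neither gene passed in any comparison.

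Of 8 TRP channel probe sets tested, 3 were called in at least 1 comparison, beside 38.7% of all tested probe sets. Trpv6, the apical calcium entry channel of calcium-absorbing epithelia, was the only channel probe set called in all 3 comparisons. Its signals were 4444, 3680 and 3445 in HRG, 3682, 1956 and 1779 in PTN, and 1366, 1213 and 1202 in BSN. HRG and PTN both lay above BSN, and PTN replicate 1 lay within the HRG range. Trpv6 was 3.02-fold higher in HRG than in BSN (log2 difference 1.60, SE 0.228, adjusted p = 0.000425), 1.63-fold higher in HRG than in PTN (adjusted p = 0.0375) and 1.85-fold higher in PTN than in BSN (adjusted p = 0.015). Only the first was kept throughout: HRG against PTN was lost on leaving out any 1 HRG array, PTN replicate 2 or PTN replicate 3 (0.0585 to 0.144), and PTN against BSN without BSN replicate 3 (0.0549). Trpv5, the closely related calcium channel of the distal nephron, had 941 ± 33.6 in HRG, 842 ± 180 in PTN and 1161 ± 205 in BSN, and passed in no comparison.

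Trpv4, which opens with cell swelling and stretch, had 1588, 1315 and 1486 in HRG, 1003, 900 and 706 in PTN, and 772, 729 and 945 in BSN. All HRG arrays lay above the rest, and PTN and BSN overlapped. It was 1.78-fold higher in HRG than in BSN (log2 difference 0.84, SE 0.185, adjusted p = 0.00792) and 1.68-fold higher in HRG than in PTN (0.75, SE 0.185, adjusted p = 0.00986). Kcnj16 shared this pattern of calls.

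Trpc2, known from pheromone sensing in rodents, had 1794 ± 456 in HRG, 2174 ± 455 in PTN and 2786 ± 189 in BSN at probe set 1389671_at. It was 1.58-fold lower in HRG than in BSN (adjusted p = 0.0411), which was lost on leaving out any 1 BSN array, HRG replicate 2 or HRG replicate 3 (0.0699 to 0.183), and its other probe set passed in no comparison. Trpm7, a magnesium and calcium channel fused to a kinase, had 6555, 6803 and 5860 in HRG, 5968, 7233 and 5587 in PTN, and 5177, 5670 and 4625 in BSN. These signals are of probe set 1398355_at. Its HRG arrays lay above the BSN arrays, but no comparison passed (adjusted p = 0.168 for HRG against BSN). The other Trpm7 probe set, 1369059_at, exceeded the 40th percentile on only 1 array and was not tested in the main fit. It had 275 ± 169 in HRG, 663 ± 143 in PTN and 223 ± 91.4 in BSN, so its highest mean was in PTN. Trpc1, a widely expressed cation channel subunit, had 2920 ± 544 in HRG, 2273 ± 305 in PTN and 2531 ± 373 in BSN, also without a call.

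Trpc4ap, the TRP-binding protein, was low in PTN. It had 4512, 4602 and 5878 in HRG, 2932, 2441 and 3546 in PTN, and 5404, 4862 and 5075 in BSN. No PTN array reached the other media. It was 1.68-fold higher in HRG than in PTN (log2 difference 0.75, SE 0.161, adjusted p = 0.00429) and 1.73-fold lower in PTN than in BSN (-0.79, SE 0.161, adjusted p = 0.00436).

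**Figure D3:**
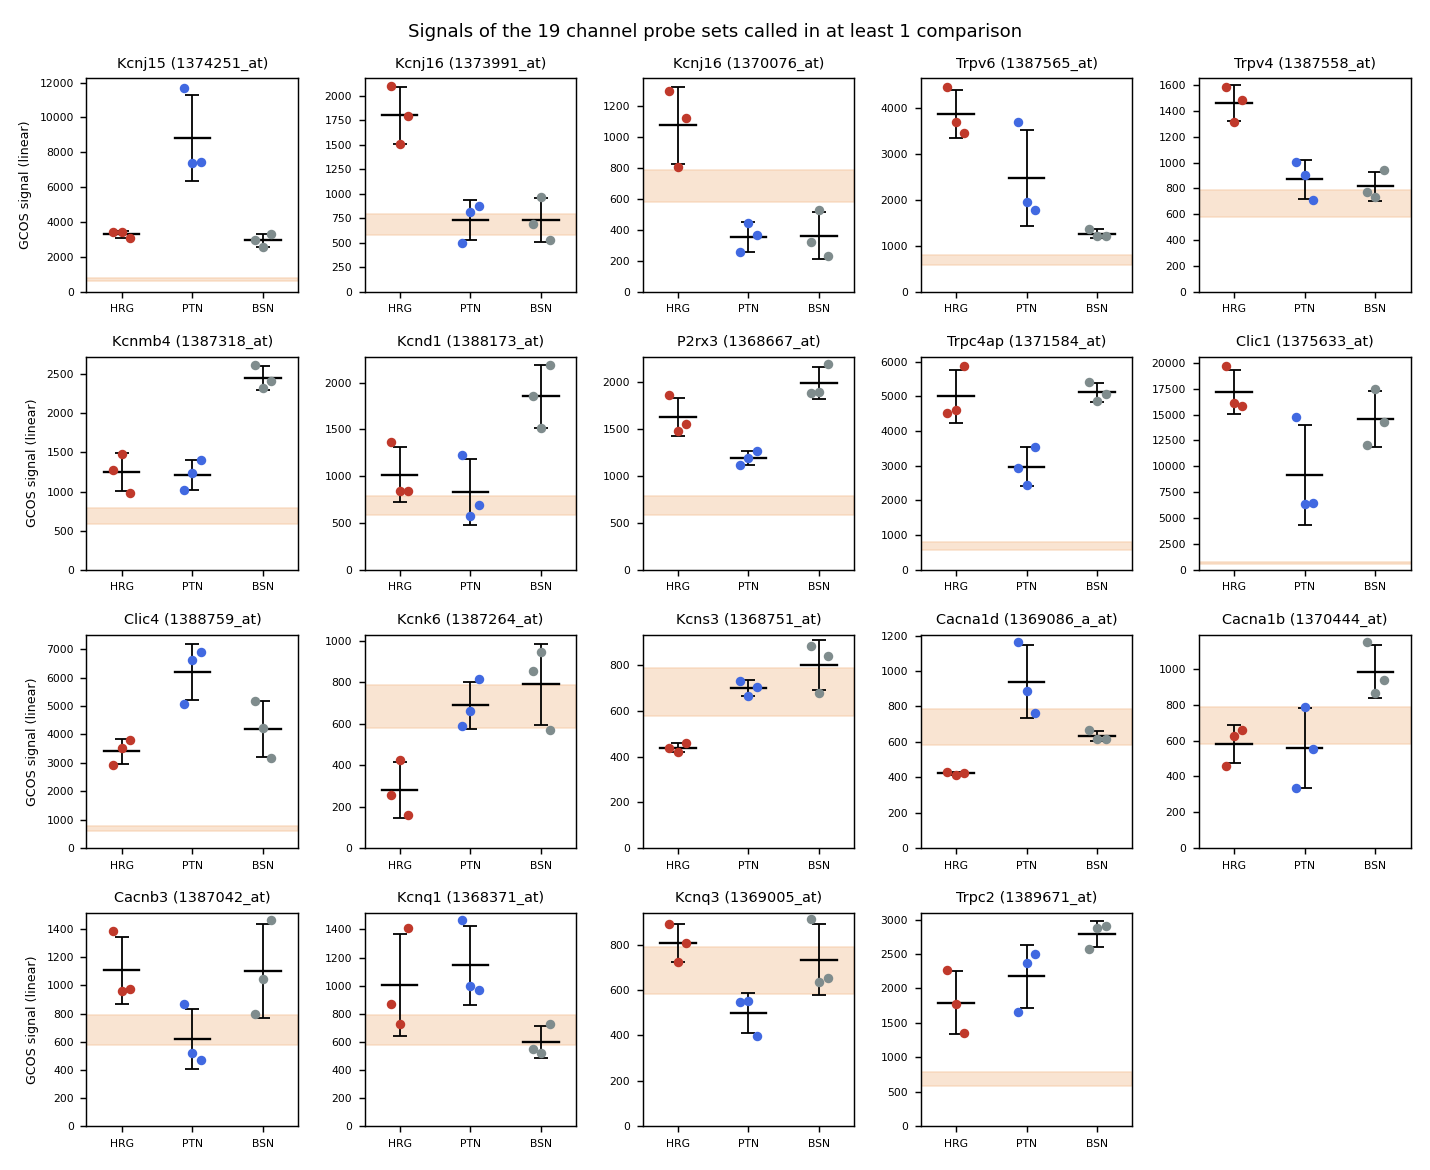
GCOS signals (vertical axes, linear, each from 0 with its own scale) of the 19 channel probe sets called in at least 1 comparison, with points for the arrays in HRG, PTN and BSN, and lines and bars for mean ± SD (n = 3). Shaded bands span the 40th percentiles of the 9 arrays, 580 to 788. Kcnj15 stood high in PTN, Kcnj16 and Trpv4 in HRG, and Kcnmb4 and Kcnd1 in BSN.

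Among chloride channels 2 of 8 tested probe sets were called in at least 1 comparison, against 38.7% of all tested probe sets, both in the intracellular family of proteins that exist in soluble and membrane forms. Clic1 had 19644, 16116 and 15791 in HRG, 14754, 6363 and 6451 in PTN, and 12032, 17449 and 14250 in BSN. PTN replicate 1 lay within the BSN range, far above the other PTN arrays. Clic1 was 2.02-fold higher in HRG than in PTN (log2 difference 1.01, SE 0.269, adjusted p = 0.0146), lost without HRG replicate 1, PTN replicate 2 or PTN replicate 3 (0.0563 to 0.0631). PTN minus BSN was -0.77 (adjusted p = 0.0576), and it passed without PTN replicate 1 (adjusted p = 0.000304).

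Clic4, which has been linked to tube formation in endothelial cells, had 2919, 3522 and 3786 in HRG, 5065, 6625 and 6888 in PTN, and 5168, 4212 and 3186 in BSN at probe set 1388759_at. It was 1.81-fold lower in HRG than in PTN (log2 difference -0.85, SE 0.189, adjusted p = 0.00528), with no overlap. It was 1.49-fold higher in PTN than in BSN (adjusted p = 0.0445), with PTN and BSN overlapping, a call that ended when replicate 2 or 3 of BSN or of PTN was left out (0.0892 to 0.191). A second probe set, 1373678_at, gave 1531 ± 173 in HRG, 1472 ± 3.01 in PTN and 1854 ± 188 in BSN, with no call. Clcn3, an endosomal chloride and proton exchanger, had 3 probe sets above the threshold and no call. At 1389652_at it had 10669, 10346 and 7735 in HRG, 5520, 8498 and 7925 in PTN, and 9310, 10280 and 6814 in BSN, and the media overlapped.

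Voltage-gated sodium channels and P2X receptors were mostly below the threshold. The auxiliary subunit Scn4b had 792 ± 26.7 in HRG, 746 ± 34 in PTN and 908 ± 194 in BSN. Scn10a, a pore known from sensory neurons, had 749 ± 36.7, 602 ± 166 and 852 ± 162 in the same order, and neither passed in any comparison. P2rx3, the ATP-gated channel of sensory neurons, had 1856, 1475 and 1550 in HRG, 1120, 1190 and 1262 in PTN, and 1883, 1894 and 2187 in BSN. The 3 media did not overlap. P2rx3 was 1.66-fold lower in PTN than in BSN (log2 difference -0.73, SE 0.144, adjusted p = 0.00383) and 1.36-fold higher in HRG than in PTN (adjusted p = 0.0404). That HRG call was lost without any 1 of its 6 arrays (0.0518 to 0.155) and with the replicate number as a block (0.0523). P2rx4, a P2X receptor of many epithelia, had 963 ± 141 in HRG, 822 ± 123 in PTN and 942 ± 41.9 in BSN, with no call.

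Several probe sets for a gene often gave different answers. Of 38 channel genes with more than 1 probe set, 17 had none above the threshold, 7 had all above it and 14 had some. In 8 genes 2 or more were above it, and 6 of these had a call. Kcnj16 had both of its probe sets called, in the same comparisons and direction, 1 of them selected through the HRG arrays alone, and in Kcnj15, Clic4, Kcnk6, Trpc2 and Kcnq3 only 1 was called. Whether such pairs read different transcripts or differ in binding was not tested.

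**Figure D4:**
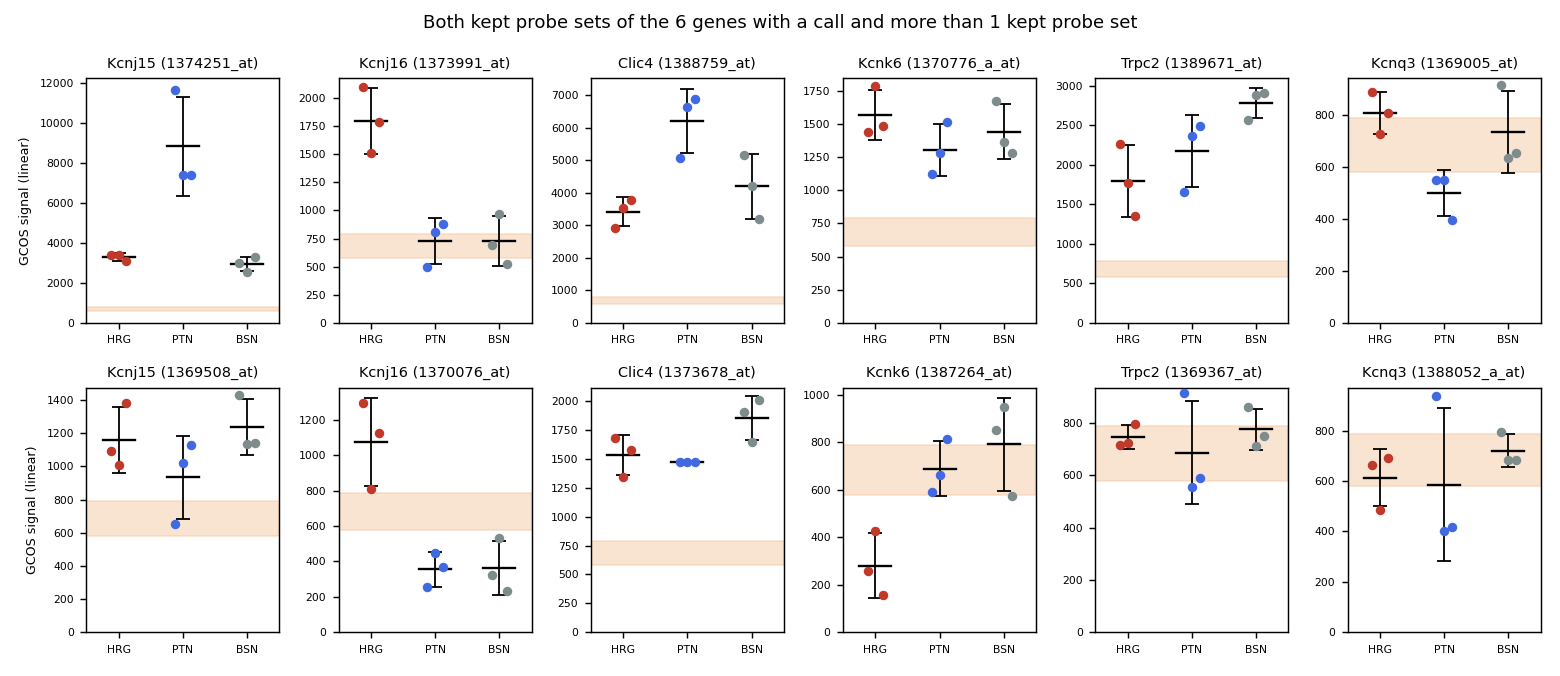
GCOS signals (vertical axes, linear, each from 0 with its own scale) of both probe sets above the threshold for Kcnj15, Kcnj16, Clic4, Kcnk6, Trpc2 and Kcnq3, by column, with points for arrays in HRG, PTN and BSN, and lines and bars for mean ± SD (n = 3). Bands span the 40th percentiles of the arrays. The pair for Kcnj16 showed the same order of media, and in Kcnj15 the high PTN mean of 8831 ± 2471 was that of the upper probe set, against 934 ± 249 in the lower.

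Genes of ion transport that the naming rule leaves out were looked at beside the channels. Of 52 such pumps, carriers and other channels, 38 were on the array and 26 were tested. In HRG against BSN 6 were higher and 1 lower, in HRG against PTN 6 and 2, and in PTN against BSN 2 and 4, where 15.8%, 25.8% and 22.5% of all tested probe sets were called. Their median log2 differences were 0.05, 0.21 and -0.09. Fxyd4, counted as higher in HRG than in BSN and than in PTN, passed the signal threshold through its HRG arrays alone, which favoured those calls. Atp1b1, a beta subunit of the sodium-potassium pump, had 38844 ± 11947 in HRG, 26173 ± 8372 in PTN and 12417 ± 1126 in BSN and was 3.04-fold higher in HRG than in BSN (adjusted p = 0.000425). Atp1b3, another beta subunit, had 4071 ± 516 in HRG, 5525 ± 585 in PTN and 4536 ± 209 in BSN. It was lower in HRG than in PTN (adjusted p = 0.0333), a call lost without several single arrays. Fxyd3, a small subunit of that pump, had 3917 ± 402 in HRG, 1036 ± 225 in PTN and 1403 ± 250 in BSN, 2.79-fold higher in HRG than in BSN (adjusted p = 0.000146). Scnn1b, a subunit of the epithelial sodium channel, had 2387 ± 654 in HRG, 1072 ± 62.5 in PTN and 1277 ± 194 in BSN, 1.83-fold higher in HRG than in BSN (adjusted p = 0.00761). Scnn1g, another subunit, had 780 ± 54.1 in HRG, 971 ± 239 in PTN and 936 ± 67.4 in BSN with no call, and Scnn1a lay below the threshold. Slc12a2, a sodium, potassium and chloride carrier, had 6056 ± 549 in HRG, 23746 ± 4103 in PTN and 11682 ± 1130 in BSN, 1.93-fold lower in HRG than in BSN (adjusted p = 0.000758).

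The calcium exporter Atp2b1 had 20863 ± 358 in HRG, 5135 ± 1007 in PTN and 15727 ± 1425 in BSN. Of 21 regulators of channels, 16 were on the array and 13 were tested. HRG against BSN gave 2 higher and 1 lower, HRG against PTN 3 and 1, and PTN against BSN 1 and 2, near the background shares of 15.8%, 25.8% and 22.5%. Nedd4l, a ubiquitin ligase that removes sodium channels from the membrane, had 12214 ± 1871 in HRG, 7115 ± 65.1 in PTN and 7200 ± 230 in BSN, 1.68-fold higher in HRG than in BSN (adjusted p = 0.00164) and 1.70-fold higher in HRG than in PTN (adjusted p = 0.000959).

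Marker lists also differed between media, and their part in the channel results was not tested. The summed signal of 5 principal cell markers of the collecting duct, each above the threshold on at least 3 arrays, was 27652 to 32640 in HRG, 9248 to 10022 in PTN and 5782 to 8914 in BSN, beside the higher Kcnj16, Trpv4 and Trpv6 of HRG. Aqp4, with 16880 ± 1551 in HRG, and Aqp3, with 9668 ± 1570, made up most of the HRG sum. Of the 5, 3 were higher in HRG than in BSN (Aqp3, Aqp4 and Scnn1b), and Avpr2 had no call. Aqp3 passed the threshold with no BSN array above it, so that selection favoured its HRG against BSN call. Aqp2, the water channel that defines these cells, had 183 ± 30.7 in HRG, 1531 ± 746 in PTN and 139 ± 26.7 in BSN. It passed the threshold through its PTN arrays alone, so the list did not move as 1. The bud markers Ret, the receptor that GDNF activates, its co-receptor Gfra1 and the transcription factor Lhx1 were each lower in HRG than in both other media. Ret had 918 ± 171 in HRG, 18756 ± 850 in PTN and 13512 ± 1883 in BSN. The summed signal of the 11 bud markers was 149368 to 165526 in HRG, 138035 to 163474 in PTN and 164732 to 175922 in BSN.

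The summed signal of 9 neuron markers, 5 of them above the threshold, was 4658 to 5619 in HRG, 8029 to 10100 in PTN and 9890 to 11319 in BSN. Of these markers 4 were lower in HRG than in BSN and 2 lower in HRG than in PTN. Dcx, in both counts, had 57.7 ± 22.6 in HRG, 1123 ± 210 in PTN and 988 ± 123 in BSN. It passed the threshold through PTN and BSN arrays alone, and that selection favoured its low HRG level. Snap25, Stmn2, Nefl and Nefm stayed below the threshold. Of channels described above as known from neurons, P2rx3, Kcnq3, Cacna1b and Scn10a were not called lower in HRG in the main fit. P2rx3 and Kcnq3 were called higher in HRG than in PTN, calls lost on leaving out most single arrays. The selection of Kcnq3, with no PTN array above the signal threshold, favoured its call. Cacna1b passed as lower in HRG than in BSN with array weights (adjusted p = 0.0367) or only the groups compared (0.0253). No HRG array of Cacna1b exceeded the signal threshold, so its selection favoured that difference. Kcnd1 and Trpc2, a channel of pheromone sensing, were called lower in HRG than in BSN, also lost without most single arrays. Scn9a was lower there without the filter. Whether these channels go with the neuron markers was not tested. Endothelial Kdr had 329 ± 27.6 in HRG, 840 ± 229 in PTN and 742 ± 29.5 in BSN and was lower in HRG than in both other media. Kdr passed the threshold with no HRG array above it, so that selection favoured a low HRG level.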

How the data were processed

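Affymetrix rat RAE230A arrays, 9 in all and 3 per medium, were hybridised with RNA amplified in 2 rounds per the labels. The authors deposited 1 table of signal intensity on a linear scale, made with GCOS per the submitters' processing notes; neither version nor settings of that program were given in the sources used. The 2% trimmed mean of each array was 2500.48 to 2500.58, so the arrays were on a common scale as deposited. The design text calls the arrays of a medium biological replicates. The number of arrays limits the precision, and no detection calls or depth were used.

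Controls (57) were set aside, which left 15866 probe sets, 12783 of them with 1 symbol in the platform's annotation. The 10106 probe sets that exceeded their arrays' 40th percentile on 3 or more of the 9 arrays were tested on log2(signal + 16), so folds of low signals are understated. No fold is given where a group's mean lay below its arrays' mean 40th percentile. All 9 arrays entered 1 fit in limma 3.58.1 (R 4.3.3; lmFit, contrasts.fit, eBayes with trend; 6 residual degrees of freedom, 12.7 after moderation). P-values were adjusted by Benjamini-Hochberg over all 10106, with a threshold of 0.05. The fit was tested on simulated data. Figures used matplotlib 3.10.9.

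The members, classes and lists were chosen with earlier results of these data known. Named were Kcnj15, every channel gene called in a comparison, and up to 3 probe sets with the highest signals per class. Replicate numbers were checked for pairing: deviations from group means correlated at 0.118 to 0.332 for same-numbered HRG and PTN arrays, -0.055 to 0.130 for HRG and BSN and -0.097 to -0.011 for PTN and BSN. By the rule of all pairs over 0.1, HRG and PTN were taken as paired, which rests on the values and on no label. The main fit held the group only, so the adjusted p-values printed for HRG against PTN ignore this pairing. The replicate block entered as an alternative. Alternatives were other scalings, pseudocounts, filters and thresholds, array weights, no intensity trend, only the groups compared, the replicate block and each array left out.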

Additional observations from a re-analysis of the deposited data

How the results depend on the processing

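No call reversed. With each array left out in turn, channel calls numbered 6 to 9 in HRG against BSN, 8 to 14 in HRG against PTN and 6 to 11 in PTN against BSN. In the same order of comparisons, a filter at the 60th percentile, which leaves 17 channel probe sets above it, gave 3, 6 and 6 calls, and a 2-fold minimum gave 4, 6 and 3. An adjusted p under 0.01 gave 7 calls in HRG against PTN and 5 in PTN against BSN. Array weights gave 13, 17 and 15. Asking for a signal above the 40th percentile on all 9 arrays left 30 channel probe sets of 60. Of the 33 calls, none was lost with pseudocounts of 1 or 64, 1 with array weights, 5 with median centring, 5 without the intensity trend, 7 with quantile normalization, 7 with only the groups compared and 10 without the filter, which adjusts over all 15866 probe sets. Calls with the replicate block were 8, 13 and 9, and the pairing changed 1 call between HRG and PTN, P2rx3 (0.0523). The block ended 3 calls in the other comparisons, Trpc2 for HRG against BSN (0.0534), and Clic4 (0.0554) and Cacnb3 (0.0535) for PTN against BSN. The number of arrays, and the many channel signals near or below the threshold, limit what could be detected.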

Other observations

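Below the signal threshold, 4 channel genes passed with 1 probe set each when all 15866 probe sets were tested without the filter. Scn9a, a voltage-gated sodium channel pore, had 25 ± 4.05 in HRG, 40.4 ± 11.5 in PTN and 190 ± 27.2 in BSN (SD, n = 3 each), with adjusted p of 0.000366 for HRG against BSN and 0.00162 for PTN against BSN by limma. Kcnab2, an auxiliary subunit of voltage-gated potassium channels, had at 1390674_at 188 ± 23.6 in HRG, 160 ± 45.4 in PTN and 523 ± 80.2 in BSN, with 0.00985 for HRG against BSN and 0.00415 for PTN against BSN. Cacna1i, a T-type calcium channel pore, had at 1369211_at 214 ± 102 in HRG and 589 ± 90.9 in BSN (0.0393), and Kcna6, a voltage-gated potassium channel, had at 1388263_at 475 ± 111 in HRG and 150 ± 34.7 in PTN (0.0365). The second probe sets of Kcnab2 (88.4 ± 15 in HRG, 83.5 ± 15 in PTN and 104 ± 2.38 in BSN), Cacna1i (185 ± 50.2 in HRG and 206 ± 64.3 in BSN) and Kcna6 (263 ± 41.6 in HRG and 171 ± 60.6 in PTN) did not pass. All 4 called probe sets lay below the array's 40th percentile on all 9 arrays, so no fold is given.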
